A study of Mus musculus with 4 samples.

Results

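Heterotrimeric G proteins relay signals from seven-pass membrane receptors to enzymes and ion channels. The members described here are 10 genes that encode their subunits in the embryonic mouse brain: the alpha s genes Gnas and Gnal, the alpha i/o genes Gnai1, Gnai2 and Gnao1, the alpha q gene Gnaq, the beta genes Gnb1 and Gnb2, and the gamma genes Gng2 and Gng3. They were taken by symbol and are 10 of the 27998 genes of the Illumina matrices. In the Nanopore matrices they had 32 of 20834 isoforms in one aliquot and 40 of 30724 in the other. Together they took 0.288% and 0.272% of the Illumina UMIs of the 190 and the 951 cell aliquot (5205 and 22559 UMIs), and 0.245% and 0.224% of the Nanopore UMIs.

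The cells came from the cortex, hippocampus and subventricular zone of an untreated C57BL/6 mouse at embryonic day 18 (E18). They were captured on the 10x Genomics Chromium system and split into samples of 190 and of 951 cells, called aliquots here. Illumina short reads of the cDNA count molecules per gene, and Nanopore long reads of the same cDNA show the exon structure of a molecule. A UMI is a random tag that marks a single captured cDNA molecule. Both aliquots are technical replicates from a single cell suspension, so every SD and p-value here covers the technical spread between them and not the spread between animals.

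A G protein is a complex of an alpha, a beta and a gamma subunit. When a receptor is activated, the alpha subunit takes up GTP and separates from the beta-gamma pair, and both then act on their targets. Alpha s raises cyclic AMP through adenylyl cyclases, alpha i lowers it, and alpha q activates phospholipase C beta, while alpha o is the abundant alpha subunit of neurons. In the developing cortex, radial glia divide in the ventricular zone and give rise to intermediate progenitors and neurons, and G protein regulators take part in how their mitotic spindle is placed.

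Cells with at least 1400 detected genes were kept, which left 186 of 190 and 935 of 951 cells and totals of 1809081 and 8295650 Illumina and 993220 and 4889148 Nanopore UMIs. The cells were clustered without the G protein genes and named from marker genes, and the thresholds for naming were chosen with the clusters in view. This gave 10 classes, each with cells of both aliquots: radial glia-like (13 and 54 cells in the 190 and the 951 cell aliquot), intermediate progenitor-like (16 and 67), cycling radial glia-like (24 and 89), immature and mature glutamatergic-like (23 and 123, 36 and 170), immature and mature GABAergic-like (31 and 147, 17 and 122), Cajal-Retzius-like (4 and 13) and 2 unnamed clusters, called by their leading genes Crym (7 and 69) and Hs6st2 (15 and 70). The cycling radial glia-like class was named from genes of cell division alone, and markers of intermediate progenitors came next in it. Its name does not show that its cells are radial glia, which was not tested. All defining markers of microglia were at 0 in the radial glia-like class. Another 11 cells, all of the 951 cell aliquot, carried markers of oligodendrocyte precursors, microglia or pericytes and were set apart. Erythroid markers were found in every class, at 4.31 to 7.18 per 10000 UMIs. The barcode sequences of 12 cells occurred in both aliquots. These cells were kept. Why they share barcodes was not tested, and the independence of the aliquots was not checked for them.

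A level is the number of Illumina UMIs of a gene per 10000 UMIs of its class in 1 aliquot. As this assay tags the 3' end of each molecule, a level counts molecules and was not scaled by transcript length. The paper also describes priming at A-rich sites inside messages, and its part in the levels was not tested. Classes were compared on summed counts with edgeR's quasi-likelihood test, with p-values adjusted by Benjamini-Hochberg over the 8529 genes tested. The fit held the 9 classes other than the Cajal-Retzius-like class, which has 4 cells in one aliquot. All 10 members passed the filter on low counts.

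Radial glia had more Gnai2 and less Gng2 and Gng3 than mature neurons. Against the radial glia-like class, the mature glutamatergic-like class had 3 members higher and 2 lower, 5 of 10, where 32.8% of all genes tested were called (16.6% higher, 16.2% lower). With the aliquot as a block 8 were called, where 43.0% of all genes were. Their median log2 fold change was 0.34, against 0.01 over all genes tested. The mature GABAergic-like class had 2 members higher and 1 lower, 3 of 10, where 30.4% of all genes were called (14.5% higher, 15.9% lower), with a median of 0.13 against -0.01. The plot of levels by class gives the levels of the members, and the plot of fitted differences the size of each difference.

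**Figure D1:**
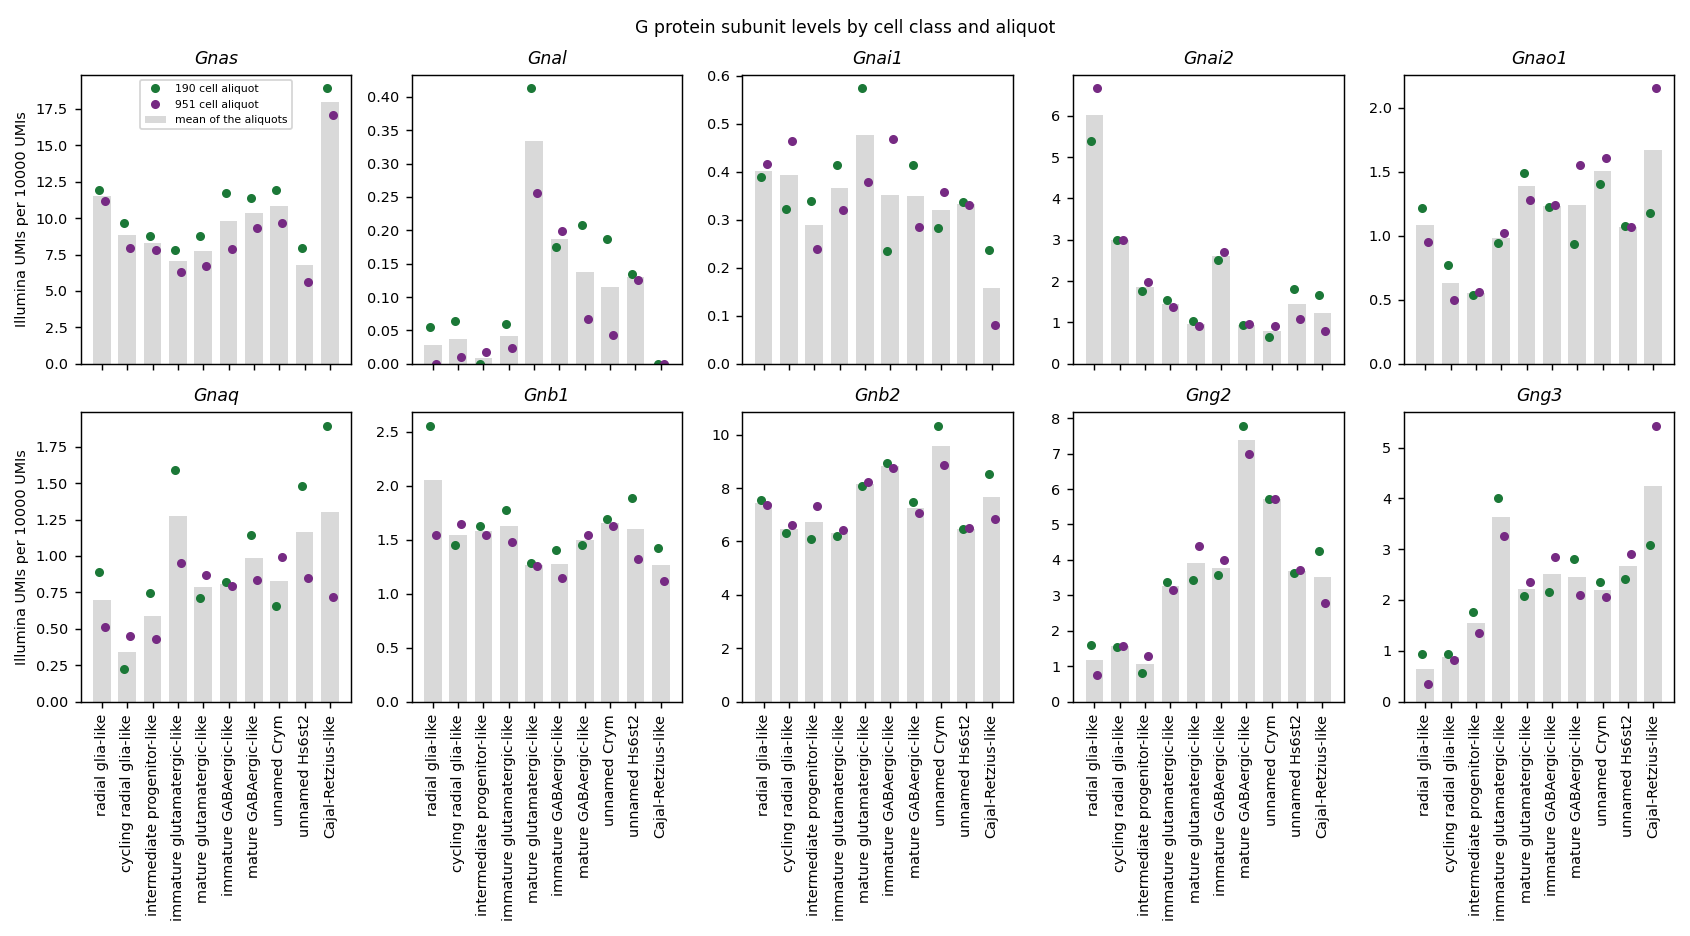
Levels of the 10 genes (y axis, Illumina UMIs per 10000 UMIs of the class, a separate linear scale for each gene) in 10 cell classes (x axis). Bars are the means of the 2 aliquots and points the aliquots; Gnai2 stands at 5.38 and 6.66 in the radial glia-like class and at or below 1.03 in both mature classes, while Gng2 reaches 7.78 and 6.99 in the mature GABAergic-like class.

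The alpha s gene Gnas (chr2:174284320-174346744, GRCm38, plus strand) encodes the subunit that stimulates adenylyl cyclase and lies in an imprinted locus with several first exons. Its level was 11.9 and 11.2 in the radial glia-like class of the 190 and the 951 cell aliquot, and 8.81 and 6.70 in the mature glutamatergic-like class, without overlap. The fitted log2 fold change was -0.51 (SE 0.18, adjusted p = 0.0248, edgeR). This call was lost without the filter on low counts (adjusted p = 0.143), without doublets (0.0544), at the coarser clustering (0.053) and on Nanopore counts (0.11). The mature GABAergic-like class had 11.4 and 9.35, which overlapped with radial glia (log2 fold change -0.25, adjusted p = 0.338). Outside the fit, the Cajal-Retzius-like class, early-born neurons of the cortical surface, had 18.9 and 17.1. A single cell held 68 of the 294 Gnas UMIs of that class. The order of the 9 fitted classes ran from radial glia down to the unnamed Hs6st2 cluster (7.94 and 5.60). All 8 neighbouring pairs in it overlapped, but its ends did not. Such an order is set by the levels themselves, so overlap or its absence between neighbours tests no difference.

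Gnas also differed in its splicing. A coding exon of 45 bases, which is 15 codons, is either kept, giving the long form of the alpha s protein, or skipped, giving the short form. It is shown here because the long reads read it directly. The sequences are from Gencode vM21 transcripts (GRCm38, plus strand, 5′ to 3′), with the exon at chr2:174336747-174336791 in capitals and 21 bases of each neighbouring coding exon in lower case. The junction without the exon joins the same flanks.
Gnas exon included: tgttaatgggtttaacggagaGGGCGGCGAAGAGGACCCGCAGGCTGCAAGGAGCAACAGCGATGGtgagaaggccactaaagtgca
Gnas exon skipped: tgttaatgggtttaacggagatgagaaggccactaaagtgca

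The share of the skipped form was highest in radial glia among the 10 classes. Of the Nanopore UMIs that span this exon or its skipping junction, 23 of 166 (13.9%) and 65 of 737 (8.82%) lacked it in the radial glia-like class of the 190 and the 951 cell aliquot. Pooled, that was 9.75% (exact 95% binomial interval 7.89 to 11.9%, counting error only). The mature glutamatergic-like class had 2 of 296 and 1 of 909 (0.249% pooled, 0.0514 to 0.726%). The mature GABAergic-like class had 0 of 86 and 0 of 438, 0 of 524 in all. By the same exact interval this allows a share of up to 0.702%. Both radial glia values lay above those of both mature classes. Gnas was called for isoform usage between the mature glutamatergic-like and the radial glia-like class (adjusted p = 1.42e-09, edgeR diffSpliceDGE over 637 genes) and between the mature GABAergic-like and the radial glia-like class (1.31e-07). Between the mature classes it was not called (adjusted p = 0.829).

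The other classes lay between these ends. The intermediate progenitor-like class had 5.10% and 6.32% of the skipped form (28 of 462 UMIs pooled), and the cycling radial glia-like class 5.06% and 4.21% (37 of 831). Immature neurons had less, with 15 of 693 UMIs in the immature GABAergic-like class (1.86% and 2.26%) and 6 of 538 in the immature glutamatergic-like class (0% and 1.37%). The unnamed Crym and Hs6st2 clusters had 2 of 833 and 1 of 347, and the Cajal-Retzius-like class 0 of 194. These intermediate classes were not tested against each other, and the plot of alternative exons shows their values.

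Within single cells, both Gnas forms occurred together. The skipped form was seen in 43 of 67 radial glia-like cells, all of which also had the form with the exon, at a median of 10 Gnas UMIs per cell. In the mature glutamatergic-like class, with a median of 4 Gnas UMIs, it was seen in 3 of 206 cells. Among all 184 cells with at least 10 such UMIs, 54 had the skipped form and 0 had more of it than of the long form. No cell held more than 5 UMIs of the skipped form.

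**Figure D2:**
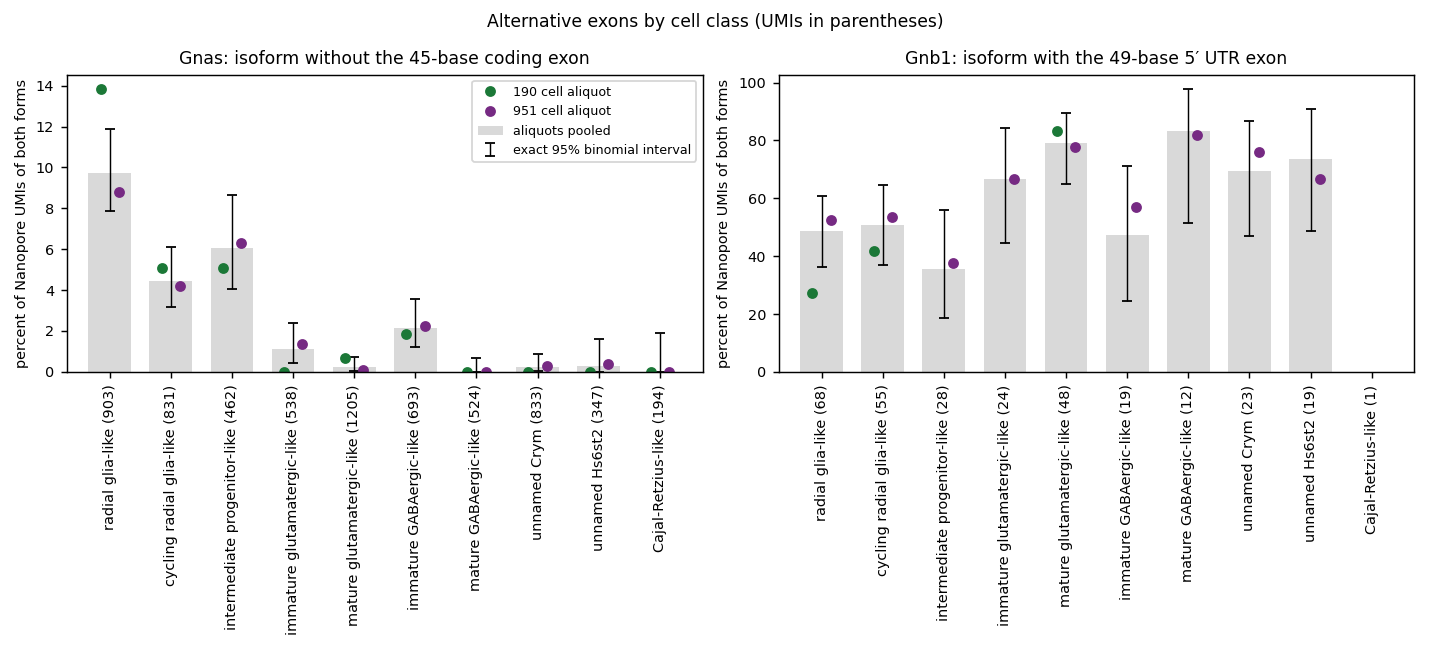
Left, percent of Nanopore UMIs of Gnas that lack the 45-base coding exon, and right, percent of Gnb1 UMIs of both forms that hold the 49-base 5′ UTR exon, by cell class (x axis, UMIs in parentheses). Bars pool the aliquots with exact 95% binomial intervals, points are the aliquots, and bars or points resting on fewer than 10 UMIs are left out; the Gnas share falls from 9.75% in the radial glia-like class to 0.249% in the mature glutamatergic-like class.

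By isoform, Gnas-208, the 12-exon long form, took 6236 of the 6548 Gnas UMIs of the 10 classes, and Gnas-206, the 11-exon skipped form, took 180. Isoforms that start at a first exon upstream of the alpha s first exon took 80 UMIs (11 of 1374 and 69 of 5174). Gnas-211, which starts at the Nesp exon, had 0 of 6548 UMIs in the classes, which allows a share of up to 0.0458%.

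Gnal (chr18:67088216-67226792, plus strand), the alpha s relative first known from olfactory neurons and later from the striatum, was rare, with 31 and 83 UMIs in the libraries of the 190 and the 951 cell aliquot. Of these, 18 and 46 fell in the mature glutamatergic-like class, 0.413 and 0.256 per 10000. The radial glia-like class had 1 and 0 UMIs, and the immature glutamatergic-like class 1 and 2. The mature glutamatergic-like level was 29.3 times that of radial glia, with a counting interval of 5.08 to 1176 that rests on the lone UMI, and the fitted difference was called (adjusted p = 0.000133, edgeR). Against the immature glutamatergic-like class the ratio was 9.97 (3.26 to 49.6), also called (adjusted p = 0.00507), though not by DESeq2 (0.257). The next highest class was the immature GABAergic-like one, with 0.175 and 0.199. Its isoforms Gnal-201 and Gnal-202, which differ in their first exon and in the length of the 3′ UTR, had 20 and 13 UMIs, too few to compare between classes.

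Among the inhibitory alpha subunits, Gnai2 (chr9:107614125-107635367, minus strand), which lowers cyclic AMP, was the member that was highest in radial glia. Its level was 5.38 and 6.66 in the radial glia-like class, 6.02 ± 0.906 (SD, n = 2). It was 1.03 and 0.903 in the mature glutamatergic-like and 0.933 and 0.953 in the mature GABAergic-like class. Every radial glia value lay above every value of the other classes. The log2 fold changes were -2.59 (SE 0.22, adjusted p = 2.56e-14) and -2.73 (SE 0.25, adjusted p = 2.65e-13, edgeR). Nanopore counts from the same cDNA gave -2.67 and -2.86. As Nanopore UMIs were assigned by matching them to Illumina UMIs, these values are no independent check.

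Down the order of classes, Gnai2 went from radial glia to the cycling radial glia-like class (2.99 in both aliquots) and the immature GABAergic-like class (2.52 and 2.70). Intermediate progenitors (1.76 and 1.97) and the immature glutamatergic-like class (1.53 and 1.37) followed. The unnamed Crym cluster (0.657 and 0.919) came last. Of the 8 neighbouring pairs in this order, 6 did not overlap. The order was set by these same levels, and the share of such pairs over all genes was not computed. The median radial glia-like cell had 6 Gnai2 UMIs and the median cell of the mature classes 1 (glutamatergic-like) or 0 (GABAergic-like). A single radial glia-like cell held 80 of the 658 UMIs of its class. Pericyte markers were also higher in the radial glia-like class, at 0.166 and 0.380 per 10000 with Vtn and Kcnj8 at 0, against at most 0.0229 in the mature classes, and endothelial markers stood at 0.0555 and 0.166 there against 0 to 0.134. Markers of oligodendrocyte precursors had 0.111 and 0.261, with Pdgfra at 0, against at most 0.0459. Their part in the Gnai2 result was not tested.

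Gnai2 also differed between the GABAergic-like classes. The mature class was lower than the immature class, with a log2 fold change of -1.57 (SE 0.25, adjusted p = 1.97e-05, edgeR). The immature cluster was led by Ebf1 and Isl1, genes of striatal neurons, and the mature cluster by Sst, a marker of cortical interneurons, so maturity and type of GABAergic neuron cannot be told apart here. This comparison called 2 of 10 members, Gnai2 lower and Gng2 higher, where 2.52% of all genes were called (1.09% higher, 1.43% lower). Between the glutamatergic-like classes the Gnai2 difference was -0.49 (SE 0.23, adjusted p = 0.292), and the differences were not tested against each other.

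The shares of Gnai2 isoforms were read beside this change in level. Gnai2-201 and Gnai2-202, which have a coding region of the same length and differ at the splice site of the last exon, in the 3′ UTR, and in where the first exon starts, made 63.7% and 31.4% of 353 UMIs in radial glia and 65.4% and 28.0% of 107 in the mature glutamatergic-like class. The intron-retaining Gnai2-206 made 4.82% and 6.54%. Isoform usage was not called in either comparison with radial glia (adjusted p = 0.743 and 0.823).

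Gnai1 (chr5:18265135-18360355, minus strand), another inhibitory alpha subunit, had low levels everywhere, with means of the fitted classes from 0.289 in intermediate progenitors to 0.476 in the mature glutamatergic-like class. All 8 neighbouring pairs of classes overlapped, though these ends did not (0.338 and 0.240 against 0.573 and 0.379). No comparison called Gnai1 (adjusted p from 0.462 to 0.829, edgeR). A single isoform, Gnai1-201, took its 153 Nanopore UMIs.

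Gnao1 (chr8:93809966-93969388, plus strand) encodes alpha o. Its level was lowest in intermediate progenitors (0.541 and 0.565) and the cycling radial glia-like class (0.773 and 0.495). Of the fitted classes it was highest in the unnamed Crym cluster (1.41 and 1.61) and the mature glutamatergic-like class (1.49 and 1.28). Radial glia themselves had 1.22 and 0.950. The mature glutamatergic-like class was not called against them (log2 fold change 0.47, SE 0.24, adjusted p = 0.130) unless the aliquot was a block in the fit (0.48, adjusted p = 0.0325). This was also so at the coarser clustering (0.73, adjusted p = 0.0113).

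Gnao1 has alternative last coding exons that give the alpha o1 and alpha o2 proteins. The first exon of each alternative pair is 154 bases long, and they differ at 29 bases, 81.2% of bases being the same. They are printed to show where the messages of these proteins part (Gencode vM21, GRCm38, plus strand, 5′ to 3′, differing bases in capitals). The annotated 3′ ends of the isoforms differ as well. The alpha o1 exon is at chr8:93963384-93963537 and the alpha o2 exon at chr8:93953975-93954128.
Gnao1 alpha o1 exon: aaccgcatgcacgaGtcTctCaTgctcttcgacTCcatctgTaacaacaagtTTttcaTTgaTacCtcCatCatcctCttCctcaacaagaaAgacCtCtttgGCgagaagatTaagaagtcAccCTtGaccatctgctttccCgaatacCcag
Gnao1 alpha o2 exon: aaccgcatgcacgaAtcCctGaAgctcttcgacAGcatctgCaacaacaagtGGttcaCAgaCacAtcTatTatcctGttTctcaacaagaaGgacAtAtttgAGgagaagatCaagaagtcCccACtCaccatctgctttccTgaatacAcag

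Among isoform-assigned UMIs, alpha o1 was the main form. The alpha o2 isoform Gnao1-207 is annotated with 5526 bases, and the alpha o1 isoforms Gnao1-201 and Gnao1-203 with 2948 and 3462. The part of transcript length in this share was not tested. Of the UMIs assigned to either, alpha o2 took 5 of 25 and 8 of 126 in the 190 and the 951 cell aliquot. The mature glutamatergic-like class had 4 of 45, the mature GABAergic-like class 3 of 20 and radial glia 2 of 14. The cycling radial glia-like class had 2 of 3, intermediate progenitors 1 of 5 and the immature GABAergic-like class 1 of 20. In the remaining classes alpha o2 had 0 UMIs. The share of alpha o2 was not tested between classes, as Gnao1 isoforms did not pass the filter of the isoform test.

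Gnaq (chr19:16132831-16387463, plus strand) encodes the activator of phospholipase C beta. Of the fitted classes, its mean was highest in the immature glutamatergic-like class (1.59 and 0.951). It was lowest in the cycling radial glia-like class (0.225 and 0.453). All 8 neighbouring pairs overlapped, but these ends did not. Against radial glia (0.888 and 0.511) the mature glutamatergic-like class (0.711 and 0.869) was not called (log2 fold change 0.49, adjusted p = 0.236), but was called with the aliquot as a block (0.57, adjusted p = 0.0445).

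**Figure D3:**
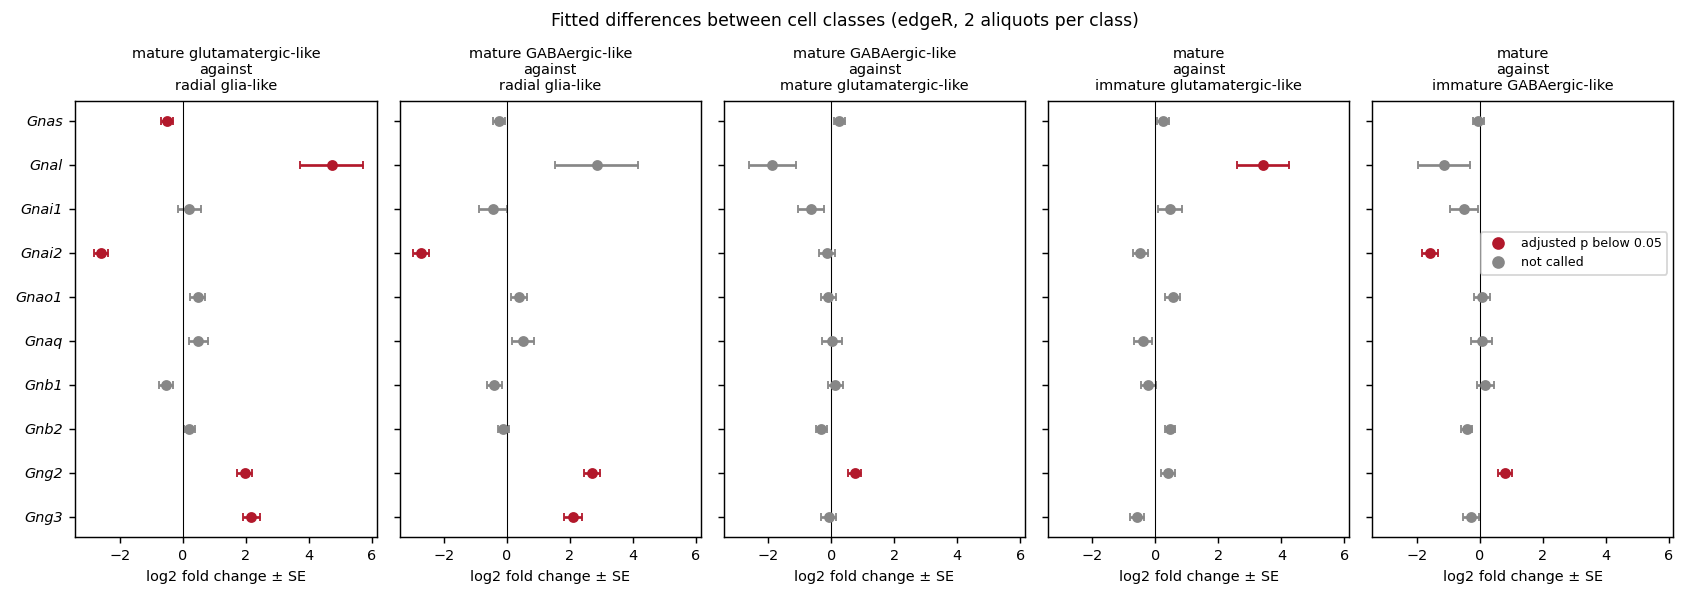
Fitted log2 fold changes with their standard errors (x axis) of the 10 genes (y axis) in 5 comparisons of cell classes, with the calls at an adjusted p below 0.05 in red. Gnai2 lies below 0 and Gng2 and Gng3 above 0 in both comparisons with radial glia, at -2.59 and -2.73, 1.96 and 2.70, and 2.18 and 2.10.

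The beta genes had the narrowest ranges of the members, the highest of the 9 fitted classes being 1.61 (Gnb1) and 1.52 (Gnb2) times the lowest. Gnai1 and Gnas were close to Gnb1, at 1.65 and 1.71. Gnb2 (chr5:137528127-137533510, minus strand) had class means from 6.32 in the immature glutamatergic-like class to 9.60 in the unnamed Crym cluster. Gnb1 (chr4:155491361-155559269, plus strand) went from 1.27 in the mature glutamatergic-like class (1.28 and 1.25) to 2.05 in radial glia (2.55 and 1.54). The Gnb1 difference was not called (log2 fold change -0.53, SE 0.23, adjusted p = 0.0703), but was with the aliquot as a block (-0.42, adjusted p = 0.0362), with another normalization (RLE, 0.0269) and on Nanopore counts (-1.36, 0.000448). Nanopore counts hold isoform-assigned UMIs only. Gnb1 had 12 and 64 of these against 46 and 130 Illumina UMIs in radial glia. In the mature glutamatergic-like class it had 13 and 44 against 56 and 225. The part of isoform assignment in the Nanopore difference was not tested. For Gnb2, the mature glutamatergic-like class had 8.07 and 8.23 and the immature one 6.20 and 6.45. That gap did not pass the test (0.46, SE 0.17, adjusted p = 0.107) except with the block (adjusted p = 0.000507).

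Gnb1 changed the use of an exon in its 5′ UTR. Gnb1-201 holds an exon of 49 bases (chr4:155515631-155515679) that Gnb1-202 skips, and both encode the same length of protein. The mature glutamatergic-like class had the exon in 10 of 12 and 28 of 36 UMIs of these forms (79.2% pooled, exact 95% interval 65.0 to 89.5%). Radial glia had it in 3 of 11 and 30 of 57 (48.5%, 36.2 to 61.0%). These classes did not overlap, and isoform usage was called (adjusted p = 0.0412, edgeR diffSpliceDGE), where 15.4% of the 637 genes tested were called and 2 of the 5 members tested, Gnas and Gnb1. The call was lost without the filter on low counts (adjusted p = 0.26) and with the Simes form of the test (0.248). The mature GABAergic-like class had 10 of 12 UMIs with the exon and was not called against radial glia (adjusted p = 0.179). There Gnas was the 1 of 5 members called, where 12.4% of genes were called.

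The other members tested for isoform usage, Gnb2 and Gng2, were not called. The short intron-retaining Gnb2-213 made 20.3% of Gnb2 UMIs in the mature glutamatergic-like and 7.97% in the mature GABAergic-like class (adjusted p = 0.282). In that comparison 2.04% of genes and 0 of the 5 members were called by diffSpliceDGE, with Gnb2 alone of the members below an unadjusted p of 0.05 (0.0157), and 0 by the Simes form. Gng2-203 and Gng2-204 share their coding length and differ in 5′ exons and in the 3′ UTR, which is longer in Gng2-204 (transcripts of 960 and 3826 bases). Gng2-203 had 1 of 19 UMIs in radial glia, 22.8% of 403 in the mature glutamatergic-like and 25.4% of 224 in the mature GABAergic-like class (adjusted p = 0.156 and 0.115 against radial glia).

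The gamma genes among the members, Gng2 and Gng3, were higher in neurons than in progenitors. Gng2 (chr14:19872559-19977627, minus strand), a gamma subunit common in brain, stood at 1.61 and 0.760 in radial glia and 0.811 and 1.28 in intermediate progenitors. It reached 3.44 and 4.39 in the mature glutamatergic-like class and 7.78 and 6.99 in the mature GABAergic-like class, with no overlap between progenitor and neuronal classes. The log2 fold changes against radial glia were 1.96 (SE 0.24, adjusted p = 2.57e-09) and 2.70 (SE 0.25, adjusted p = 5.2e-13, edgeR). In single aliquots, with no test, they were 1.15 and 2.55, and 2.11 and 3.11, the smaller value coming from the 190 cell aliquot each time.

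Between the mature classes, Gng2 was the 1 member of 10 that was called, where 8.52% of all genes were (3.45% higher, 5.08% lower). The GABAergic-like class was higher by 0.74 (SE 0.22, adjusted p = 0.0201). The call was lost without the filter on low counts (adjusted p = 0.0641) and with DESeq2 (0.0858). With the aliquot as a block, 4 members were called, where 14.1% of all genes were: Gng2, Gnas higher in the GABAergic-like class (0.30, adjusted p = 0.0433), and Gnal (-1.77, 0.0423) and Gnb2 (-0.33, 0.0315) lower.

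Gng2 was also called between the GABAergic-like classes. It was higher in the mature class than in the immature class (3.57 and 3.99) by 0.82 (SE 0.22, adjusted p = 0.0281), a call lost without the filter (0.0648), without doublets (0.0567) and with DESeq2 (0.112). From the immature (3.36 and 3.14) to the mature glutamatergic-like class the difference was 0.39 (adjusted p = 0.406), and 0.67 at the coarser clustering, where it was called (adjusted p = 0.0219). With the block this comparison called 4 members, Gnal, Gnb2, Gng2 (0.45, adjusted p = 0.0111) and Gng3 (-0.51, 0.00552), where 12.6% of all genes were called. Without the block it called 1 of 10, Gnal, where 5.73% of genes were called (3.06% higher, 2.67% lower). Between the GABAergic-like classes the block added Gnb2 (-0.41, adjusted p = 0.0149), giving 3 members where 5.90% of all genes were called.

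Gng3 (chr19:8836933-8839194, minus strand), a gamma subunit of neurons, had 0.943 and 0.344 in radial glia. It had 0.934 and 0.822 in the cycling radial glia-like class and 1.76 and 1.35 in intermediate progenitors. Its highest fitted class was the immature glutamatergic-like one (4.01 and 3.26), which did not overlap with the next. The mature glutamatergic-like class had 2.09 and 2.35 and the mature GABAergic-like class 2.80 and 2.09. Against radial glia the log2 fold changes were 2.18 (SE 0.28, adjusted p = 7.79e-09) and 2.10 (SE 0.30, adjusted p = 1.11e-07, edgeR). In single aliquots they were 1.18 and 2.73, and 1.40 and 2.45, again smaller in the 190 cell aliquot. Its 1344 Nanopore UMIs in the classes all belonged to 1 isoform, Gng3-201.

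Of the 10 other gamma genes only 2, Gng5 and Gng12, passed the filter, and both moved the opposite way. They were lower than in radial glia in the mature glutamatergic-like and in the mature GABAergic-like class. Of all genes tested, 16.2% and 15.9% were called lower there. Gng5, a broadly expressed gamma subunit, had 7.60 and 8.73 in radial glia and 1.88 and 1.47 in the mature glutamatergic-like class (log2 fold change -2.24, adjusted p = 1.2e-12), and -2.74 in the mature GABAergic-like class. Gng12 had 8 and 37 UMIs in radial glia, 1 and 6 in the mature glutamatergic-like and 0 and 0 in the mature GABAergic-like class. In the last, its level was at least 7.95-fold lower by the counting interval. With 3 counts put in place of the 0 it was 10.2-fold lower. Of all gamma UMIs of radial glia, Gng5 made 81.2%, Gng2 8.66% and Gng3 4.28%. In the mature GABAergic-like class Gng2 made 66.8% and Gng5 10.6%.

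**Figure D4:**
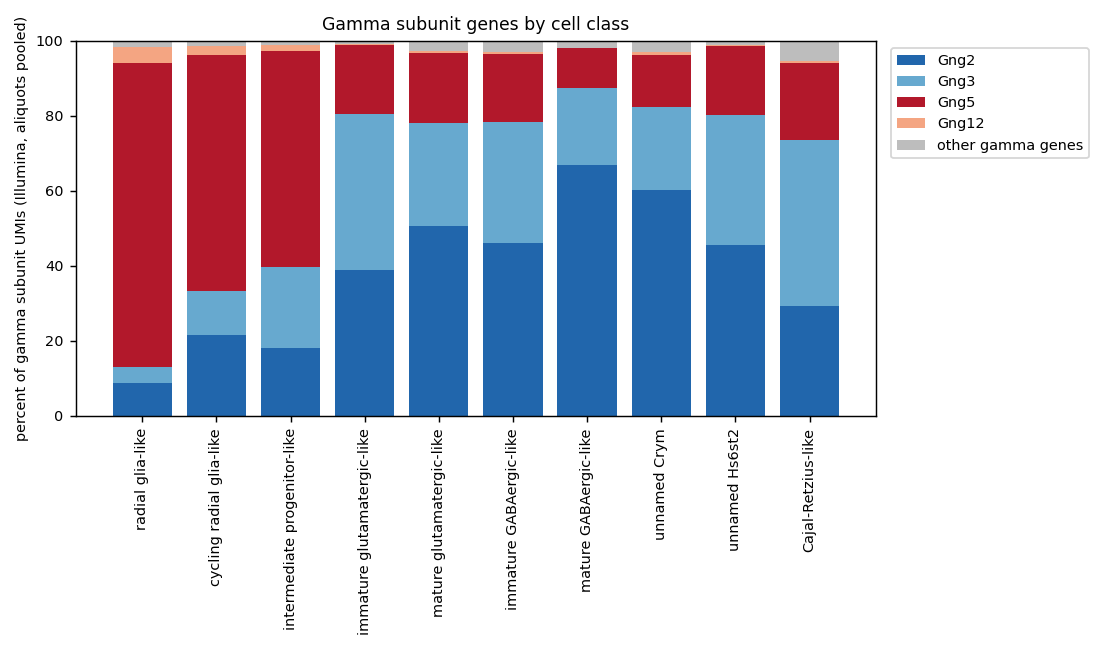
Share of each gamma subunit gene (y axis, percent of the Illumina UMIs of 12 gamma genes, aliquots pooled) in 10 cell classes (x axis). Gng5 makes 81.2% in the radial glia-like, 62.9% in the cycling and 57.7% in the intermediate progenitor-like class and 20.3% or less in the neuronal classes, where Gng2 and Gng3 make up most of the rest.

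Other genes of the pathway were counted from lists. Of 10 other alpha genes, 5 were tested. In the mature glutamatergic-like class Gnaz, an alpha i relative, was higher than in radial glia (0.482 and 0.479 against 0.111 and 0.131, log2 fold change 1.98, adjusted p = 0.00120) and Gna13 was lower, and in the mature GABAergic-like class Gnaz was higher (1.54, adjusted p = 0.0334). DESeq2 called Gnaz in neither (adjusted p = 0.0644 and 0.202). Of 3 other beta genes only Gnb4 was tested. It was called once, higher in the mature than in the immature glutamatergic-like class (0.505 and 0.407 against 0.0590 and 0.126, 2.05, adjusted p = 0.00338), but not by DESeq2 (0.175). None of the 9 adenylyl cyclase genes passed the filter. Of 4 phospholipase C beta genes Plcb1 was tested, and it was called in 1 comparison, higher in the mature glutamatergic-like class than in radial glia.

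The regulators of G protein signalling showed changes in both directions. Of 23 genes 16 were tested, and against radial glia 5 were higher and 2 lower in the mature glutamatergic-like class, where 16.6% and 16.2% of all genes were. In the mature GABAergic-like class 6 were higher and 2 lower, where 14.5% and 15.9% of all genes were. Both lower genes were Rgs20, a GTPase activator of alpha i-type subunits, and Gpsm2, which links alpha i to the mitotic spindle. Rgs20 had 25 and 58 UMIs in radial glia, 0 and 4 in the mature glutamatergic-like and 0 and 1 in the mature GABAergic-like class. Gpsm2 had 16 and 30, 1 and 7, and 0 and 2.

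Among the higher genes, Gprin1, a partner of alpha subunits in neurite growth, was called in both mature classes (log2 fold changes 2.74 and 2.71, adjusted p = 1.13e-06 and 1.07e-05). Rgs17 had 2 UMIs in radial glia against 52 and 20 (ratios 11.9, counting interval 3.14 to 101, and 14.7, 3.58 to 129.9). Rgs7 had 1 against 43 in the mature glutamatergic-like class (ratio 19.7, 3.35 to 796), which DESeq2 did not call (adjusted p = 0.0691). Gpsm1 and Rgs10 were higher in the mature GABAergic-like class (2.21 and 2.14), Rgs10 not with DESeq2 (0.233).

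Between the mature classes, Rgs2, a GTPase activator that acts on alpha q, was higher in the GABAergic-like class (1.56 and 1.12 against 0.321 and 0.240, log2 fold change 2.08, adjusted p = 8.50e-07). So was Rgs10, and Rgs6 was lower (1 UMI against 42, ratio of the glutamatergic-like to the GABAergic-like level 13.1, counting interval 2.22 to 528). DESeq2 did not call Rgs10 or Rgs6 here (adjusted p = 0.468 and 0.455). Rgs4 and Rgs6 were higher in the mature than in the immature glutamatergic-like class, with 27 against 0 and 42 against 1 UMIs. For Rgs4 the ratio was 4.21 with 3 counts put in place of the 0. No regulator was called between the GABAergic-like classes by edgeR.

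Genes with the most similar pattern were sought among 3028 genes with a mean of at least 50 CPM, by Pearson's r of log2(CPM + 10) over the 10 classes, which share depth and libraries. For Gnai2 they were Sox9 (0.98), a factor of neural progenitors, Rhoa (0.94) and Mt2 (0.94). For Gnas they were Rrbp1 (0.96), Sdhc (0.92) and Kdelr1 (0.91). Gng2 was closest to Rfng (0.97), Apc (0.97) and Vps4a (0.96), and Gng3 to Sgip1 (0.97), Cep170b (0.96) and Tspyl1 (0.96). Gnao1 was closest to the neuronal tubulin gene Tubb2a (0.98), then Vps29 (0.95) and Med19 (0.94). For Gnaq they were Agpat4, 2210016L21Rik and Zcchc18 (all 0.94), for Gnai1 Ak6 (0.93), Smn1 (0.90) and Nvl (0.89), and for Gnal Tenm2 (0.87), Runx1t1 (0.86) and Mrpl23 (0.86). Among the beta genes, Gnb1 was closest to Utp11l (0.90), Ptpra (0.84) and Adprh (0.83), and Gnb2 to Calm3 (0.86), Cfl1 (0.85) and Lamtor1 (0.83). Each r is among the highest of 3028 over only 10 classes, a choice that by itself yields high values. None was tested. Gnal had 0 UMIs in the Cajal-Retzius-like and 1 in the radial glia-like class.

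The platforms did not recover the members equally. For Gnas, the Nanopore libraries had 1374 and 5268 isoform-assigned UMIs against 1797 and 6752 Illumina UMIs, 76.5% and 78.0%. Gng3 followed with 57.7% and 66.1% and Gnai2 with 57.4% and 52.2%. Gnb2 had 19.3% and 28.6%, Gnb1 23.7% and 26.1%, Gnao1 16.9% and 18.2%, and Gnaq 7.79% and 5.56%. The plot of recovery by gene shows that the members kept a similar place in both aliquots.

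With libraries scaled by TMM, 6 of 10 members differed between platforms (edgeR, 2 libraries per platform). Of the 9841 genes tested, 50.5% were called (20.1% higher, 30.4% lower). Gnas was higher on Nanopore (log2 fold change 0.57, SE 0.14, adjusted p = 0.0177). Gnaq (-3.12, SE 0.21, adjusted p = 0.000274), Gnao1 (-1.55), Gnb2 (-1.10), Gnb1 (-1.07) and Gng2 (-0.38, adjusted p = 0.0335) were lower. DESeq2 called 5, without Gng2 (adjusted p = 0.136), and RLE scaling called 7, adding Gng3 (0.30, adjusted p = 0.0434). With the aliquot as a block 9 were called, where 70.7% of all genes were, adding Gnai1 (-0.35, adjusted p = 0.0141), Gnal (-0.85, 0.00279) and Gng3 (0.29, 0.000434). The main isoforms of Gnaq and Gnas are annotated with 5644 and 1716 bases and that of Gnb2 with 1569. The part of transcript length in these differences was not tested.

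**Figure D5:**
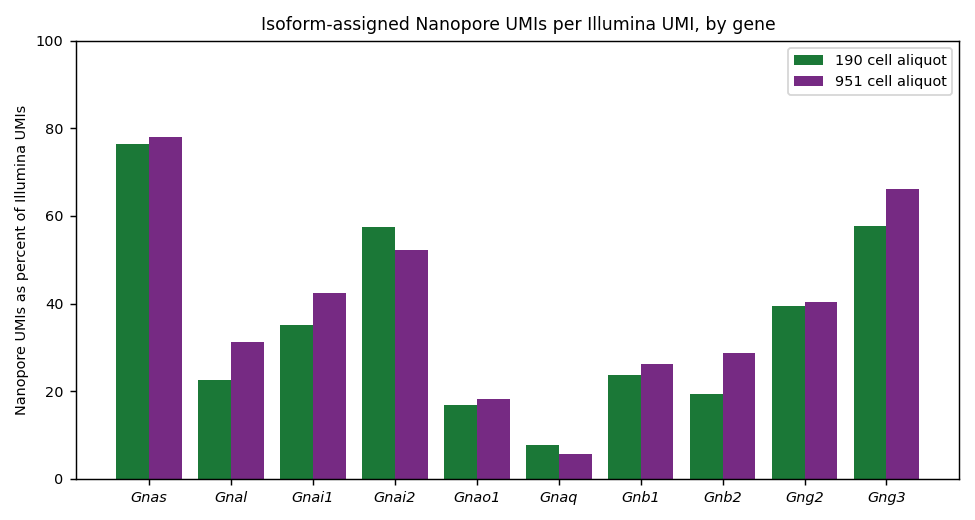
Isoform-assigned Nanopore UMIs as a percent of the Illumina UMIs (y axis) of each of the 10 genes (x axis) in the 190 and the 951 cell aliquot (bars). Gnas stands highest at 76.5% and 78.0% and Gnaq lowest at 7.79% and 5.56%.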

How the data were processed

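The deposited Illumina values are UMI counts per gene and cell, made by the authors with Cell Ranger 2.0 per the labels (build mm10, GRCm38). The deposited Nanopore values are UMI counts per Gencode isoform and cell, for which the authors mapped long reads with minimap2 and assigned barcodes, UMIs and isoforms with Sicelore. UMIs with no assigned isoform were not analysed here, so a gene's Nanopore count is a count of isoform-assigned molecules. The members and gene lists were chosen with earlier results of these data known.

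Cells with at least 1400 Illumina genes were kept. Both aliquots were integrated and clustered in Seurat 5.3.0 (2000 features, 68 G protein genes left out, resolution 0.8) and classes were named from markers. Scrublet in scanpy 1.11.5 called 2 and 3 doublets, which stayed in. Counts were summed by class and aliquot, and 9 classes were fitted together with edgeR 4.0.16 (quasi-likelihood test, TMM, filterByExpr, R 4.3.3), with 9 residual degrees of freedom and a threshold of 0.05. Isoform usage was tested with diffSpliceDGE at the gene level, and the platforms with 2 libraries each. Intervals and limits cover counting error only, at 95% confidence and with a floor of 3 counts.

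As same-numbered samples are the same aliquot, pairing was checked by correlating deviations from class means: the median r was 0.176 (0.104 to 0.304 over 36 pairs of classes), 0.0672 for isoforms and 0.596 between platforms. Counts were simulated for the comparison of mature glutamatergic-like cells with radial glia (7896 genes). The test recovered 17% of 100 genes changed 2-fold and 86% of 100 changed 4-fold. These counts were drawn from a single profile pooled over the classes, and no other gene was changed. In the data 32.8% of genes were called in this comparison, so the recovered shares need not hold there. Named were the 10 members, their isoforms with at least 5% of a gene's UMIs, up to 4 called list genes per direction and comparison, and the 3 genes closest to each member. Isoforms were placed with Gencode vM21, which held all 40 (37 with the same version). Alternatives were RLE scaling, no filter, DESeq2 1.42.0, the aliquot as a block, no doublets, resolution 0.6, Nanopore counts, the Simes test and single aliquots.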

Additional observations from a re-analysis of the deposited data

Results flagged for a closer look

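Signals outside the comparisons were found in cells that no test used. In the 11 cells set apart, Gnas-211, the isoform that starts at the Nesp exon, made 7.45% of Gnas UMIs (7 of 94, exact 95% interval 3.05 to 14.7%). These UMIs came from 2 cells, and the 10 classes had 0 of 6548, which allows a share of up to 0.0563% (exact 95% interval).

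In the Cajal-Retzius-like class, isoforms with a first exon upstream of the alpha s first exon made 8.25% of Gnas UMIs (17 of 206, 4.88 to 12.9%), and 80 of 6548 in all 10 classes together. They were 0 of 46 UMIs in the 190 and 17 of 160 in the 951 cell aliquot, and 12 of them were Gnas-219 UMIs of 1 cell. Neither signal was tested against other cells.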

How the results depend on the processing

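Of 344 gene-level values of members recomputed with a test, 318 kept their side of the threshold, 16 passed it newly and 10 no longer passed it. The sign changed in 0 of 82 values of differences that were called and in 13 of 262 that were not. Values from a single aliquot have no residual degrees of freedom and so no test. Among them the sign changed in 0 of 24 for called differences and in 14 of 76 for others. An example is Gnaq in the 190 cell aliquot, mature glutamatergic-like cells against radial glia, at -0.24. The called differences were selected in a fit of the same aliquots, so neither the 0 of 82 nor the 0 of 24 is an independent check. Of the 100 values, 20 lay further from the fitted value than 1 SD between aliquots. That SD rests on the same single-aliquot values, so this count cannot measure how well the aliquots agree.

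With the aliquot as a block, 8 members were called between mature glutamatergic-like cells and radial glia, 4 between the mature classes and 4 between the glutamatergic classes, and the block changed no other call than those named beside the results. Genes called rose with it to 1205 between the mature classes, 1073 between the glutamatergic and 503 between the GABAergic classes, and to 21 for isoform usage between the mature classes. DESeq2 called 1510, 1372, 285, 137 and 70 genes in the 5 comparisons, from left to right in the plot of fitted differences, and 3064 between platforms. It called 0 members between the mature and 0 between the glutamatergic classes, where 1 and 2 had an unadjusted p below 0.05, and 1 between the GABAergic classes. Without the filter, edgeR called 0 members between the mature classes, 2 being below 0.05 unadjusted, and 1 between the GABAergic classes, where leaving out doublets also gave 1. Between the glutamatergic classes, the coarser clustering called 2 members, Gnal and Gng2, and 758 genes. Nanopore counts called 0 of 9 members there (edgeR, 2 below 0.05 unadjusted), Gnal being too low to test. At the coarser clustering Gnao1 was also called between mature GABAergic-like cells and radial glia (0.65, adjusted p = 0.0499, edgeR). On Nanopore counts Gnb1 was called there (-1.40, adjusted p = 0.00404, edgeR). The mature GABAergic-like class had 1 and 19 isoform-assigned Gnb1 UMIs against 14 and 92 Illumina UMIs. The part of isoform assignment in this difference was not tested.

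For isoform usage against radial glia, the Simes form and no filter each called 1 member in the mature glutamatergic-like class, where no filter called 156 genes. Without doublets 2 members were called in the mature GABAergic-like class, Gng2 being added (adjusted p = 0.0489), where the Simes form called 50 genes. Between the mature classes the Simes form and no filter each called 7 genes. In each case the cause was not tested.

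By aliquot, the Gnas form without the exon ranged from 8.82 to 13.9% in radial glia and from 0.110 to 0.676% in mature glutamatergic-like cells. The Gnb1 exon ranged from 27.3 to 52.6% and from 77.8 to 83.3% in these classes. In mature GABAergic-like cells it stood at 81.8% (9 of 11 UMIs) and 100% (1 of 1 UMI). Low counts of Gnal, Gnaq and Gnao1 isoforms limit what could be compared.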

Other observations

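The 11 cells set apart, with markers of oligodendrocyte precursors (6 cells), microglia (3) or pericytes (2), had 14 of 94 Gnas UMIs without the 45-base exon, 14.9% (exact 95% interval 8.39 to 23.7%). All 11 had Gnai2, at a median of 4 UMIs per cell. Being few and of 1 aliquot, they were compared with no class.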
